A study of Rattus norvegicus with 6 samples.

Results

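The enzymes of glycolysis were followed in whole rat ovaries around the time of primordial follicle assembly. The 10 genes considered, in pathway order, were Hk1, Hk2, Pfkl, Aldoa, Aldoc, Tpi1, Pgk1, Eno1, Pkm and Ldha, and a probe set was taken as a member when the array's annotation gave it exactly 1 symbol equal to one of these. The rule found 17 of the 8799 probe sets on the array, for 8 of the 10 genes. The only probe set listing Tpi1 and the only one listing Ldha also listed related genes, so neither enzyme has a value here. Of the 17 probe sets, 3 for Hk1 are manufacturer's controls, 1 for Hk2 and 1 for Pgk1 were too dim to be tested, and 12 were tested.

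Affymetrix rat short-oligonucleotide arrays were hybridized with RNA from 3 groups of 2 arrays each. The cultured ovaries were taken from female pups on the day of birth and kept for 7 days on floating filters in a DMEM and Ham's F-12 mixture with bovine serum albumin, Albumax, transferrin, insulin, ascorbic acid, penicillin and streptomycin. The P4 ovaries were taken from female pups on postnatal day 4, and the P0 ovaries from female pups on postnatal day 0. About 20 ovaries were pooled for the RNA of an array, and the labels call the 2 pools of a group independent. They name no strain. The design text of the series mentions progesterone-treated cultured ovaries, but no sample label gives a treatment, so whether either cultured array was treated is not settled.

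Glycolysis splits glucose into pyruvate in the cytosol. Hexokinases and phosphofructokinase spend ATP on the sugar, aldolase cleaves it into triose phosphates, and phosphoglycerate kinase and pyruvate kinase return ATP. Lactate dehydrogenase interconverts pyruvate and lactate. In the ovary, granulosa cells are known for active glycolysis, and the oocyte, which uses glucose poorly, takes up pyruvate that they make.

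The tested member probe sets from aldolase to pyruvate kinase read higher in cultured than in P4 ovaries, and most of these differences did not pass the test. In whole tissue, fewer cells of a type and less RNA per cell cannot be told apart. Intensities are the authors' scaled linear values, changes are on the scale of log2(intensity + 7.7), and a probe set passed when its limma p, adjusted by the Benjamini-Hochberg method over all 6118 tested probe sets, was under 0.05. Of the 12 tested member probe sets, 2 passed as higher in cultured than in P4 ovaries (both Aldoc), against 2.16% of all tested probe sets, and none as lower, against 0.621% (2.78% in either direction). Against P0, 1 passed as higher in cultured ovaries (Pgk1), where 3.48% of all did, and none as lower, where 1.95% did (5.43% in either direction). None of the 12 passed between P4 and P0, where 0.85% of all passed as higher and 0.229% as lower (1.08% in either direction). With the shared chip ID batch as a block none of the 12 passed there either, against 5.13% of all.

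The array of P0 replicate 1 stood apart. Gapdh, the glycolytic dehydrogenase between aldolase and phosphoglycerate kinase, is covered by manufacturer's control probe sets, which were left out of the test. Its 3′ set read 2491.6 and 2775.1 in cultured ovaries, 2408.4 and 2162.3 at P4, and 1324.2 and 2233.5 at P0. Its 5′ and middle sets read 1386.3 and 1292.7 on P0 replicate 1, below every other array in both cases, and the other 5 arrays lay between 2005.7 and 2678. The added bacterial spikes went the other way, with BioDn 3′ at 2374.4 on P0 replicate 1 against 1078.8 to 1597.7 on the other arrays. The 3′ to 5′ ratio, a sign of RNA integrity, was 0.955 for GAPDH and 2.23 for beta-actin on that array, against 0.966 to 1.15 and 1.75 to 2.19 on the others. Replicate arrays correlated at 0.965 for cultured, 0.969 for P4 and 0.962 for P0 ovaries over probe sets, which are no independent replicates.

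All 12 tested member probe sets read lower on P0 replicate 1 than on P0 replicate 2. The median difference was 0.80 on the log2 scale, with a range of 0.04 to 1.66, and 8 of the 12 differed by more than 0.5. Over all 6118 tested probe sets the same difference had a median of -0.04, and 9.77% exceeded 0.5 in that direction. The 2 cultured arrays differed by a median of 0.20 over the members and the 2 P4 arrays by -0.09. The spread of the members was thus widest at P0. On Aldoa and both Eno1 sets, P0 replicate 2 read like the cultured arrays and P0 replicate 1 like P4 or below it. This was not general: both cultured arrays lay above P0 replicate 2 on 6 of the 12 sets and below it on 5. Several marker sums also differed between the P0 arrays. On replicate 1 the smooth muscle sum was lower (643.7, and 1005.8 on replicate 2), as were those of macrophages (314.7 and 444.6) and stroma (13586.8 and 15248.2), while the theca and steroidogenic sum was higher (116.1 and 52). That last sum lay near the floor. Cyp11a1 and Cyp17a1 read under 20 on both P0 arrays, Star 36.1 and 5.1, and Lhcgr 63.5 and 34. Another Lhcgr set, M26199_s_at, read 20.4 and 21.6. The erythroid sum was 3985.4 on replicate 1 and 4104.9 on replicate 2, and the oocyte sum 1480.9 and 1459.6. The near-equal oocyte sums hid opposite differences. Sycp3 (300 and 184.6) and Sycp1 (115.9 and 77.7) were higher on replicate 1. The other summed oocyte markers, among them Zp2 (282.4 and 338.3) and Zp3 (519.6 and 566.9), were lower on it. The part of all these markers in the enzyme differences was not tested.

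**Figure D1:**
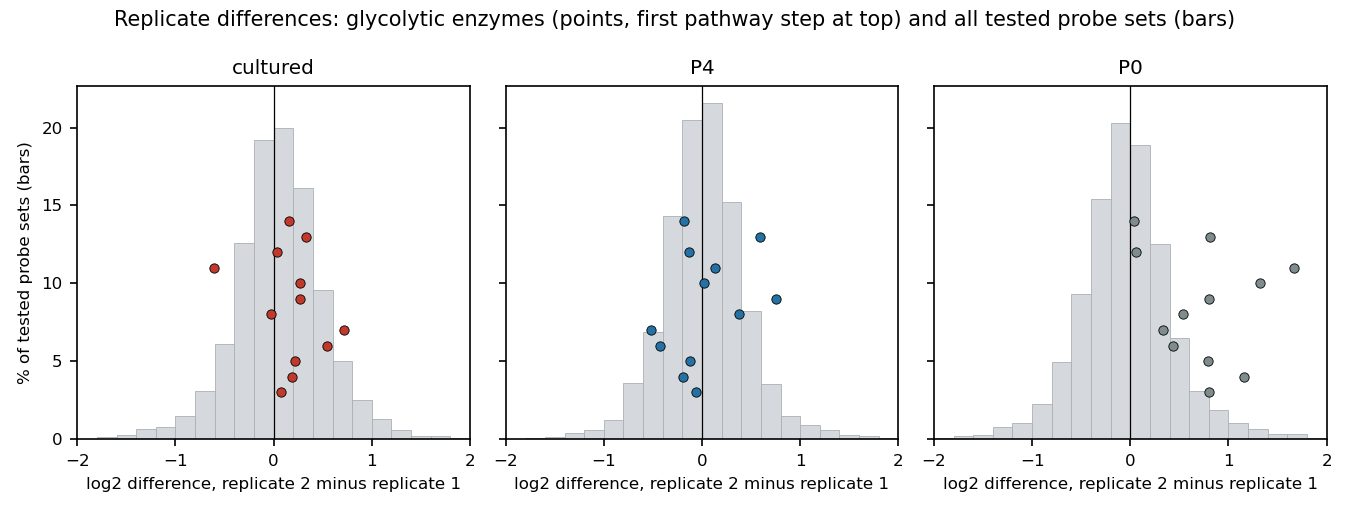
Difference between the 2 arrays of each group, as log2 intensity of replicate 2 minus replicate 1. Grey bars give the percentage of the 6118 tested probe sets in each bin (y axis), and points are the 12 glycolytic enzyme probe sets, stacked in pathway order with no meaning in their height. At P0 all 12 points lie above 0, at a median of 0.80.

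No tested probe set of the first steps, hexokinase and phosphofructokinase, passed in any comparison. Hk1, the broadly expressed hexokinase, read 141.6 and 159.2 in cultured, 247.1 and 217.4 in P4 and 174.2 and 179.2 in P0 ovaries on probe set rc_AI012593_at. The 3 groups did not overlap on it, with P4 highest and cultured lowest. Its log2 change was -0.60 for cultured against P4 (SE 0.20, limma adjusted p = 0.202), -0.22 against P0 (adjusted p = 0.588) and 0.38 for P4 against P0 (adjusted p = 0.488). The 3′ hexokinase control set showed the same order of group means, at 51.6 and 54.1 in cultured, 92.5 and 97.5 in P4 and 54.9 and 72.1 in P0 ovaries, and its groups did not overlap. The other Hk1 set, U27319exon_at, read 74.3 and 95.2 in cultured, 69.5 and 108.8 in P4 and 60.9 and 112.7 in P0 ovaries, with all 3 groups overlapping. The 5′ and middle hexokinase controls read between 6.7 and 24.5 on all arrays, near or below 20, the highest reading of 15 control sets for transcripts that were not added.

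Hk2, the insulin-responsive hexokinase of muscle and fat, has a pair of probe sets that disagreed. On M68971_at it read 98.2 and 100.5 in cultured, 97.1 and 88.2 in P4 and 80.6 and 84.1 in P0 ovaries. The groups did not overlap, but the log2 changes were small: 0.09 in cultured ovaries relative to P4 (adjusted p = 0.91), 0.25 relative to P0 (adjusted p = 0.552) and 0.16 for P4 against P0 (adjusted p = 0.834). Its 95% intervals, -0.38 to 0.57, -0.22 to 0.72 and -0.32 to 0.63, bound any change to under 1 log2 unit. On D26393exon_s_at it read 52.1 and 31.9 in cultured ovaries, and 2.2 and 1.9 at P4 and 2.3 and 2.2 at P0, all 4 of these under 20. That set was at least 2.04-fold higher in cultured ovaries than in either other group, whose arrays were set to 20, and it was left out of the test because its mean over all arrays was too low. With no filter on dim probe sets it passed as higher in cultured than in P4 and in P0 ovaries (limma adjusted p = 0.00521 and 0.00472).

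Pfkl, the liver-type phosphofructokinase of the committed step, read 147.4 and 93.8 in cultured, 97.1 and 106.8 in P4 and 64.7 and 221.8 in P0 ovaries. The P0 arrays lay on either side of all the others. Its log2 changes were -0.04 for cultured against P0 (SE 0.46, adjusted p = 0.974), -0.23 for P4 against P0 (adjusted p = 0.891), and cultured minus P4 was 0.20 (adjusted p = 0.914). Within the chip ID batches that P0 and P4 arrays share, its P4 minus P0 difference was 0.53 in the batch of replicates 1 and -1.0 in that of replicates 2. The sign of its change against P0 therefore went with the P0 array used.

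**Figure D2:**
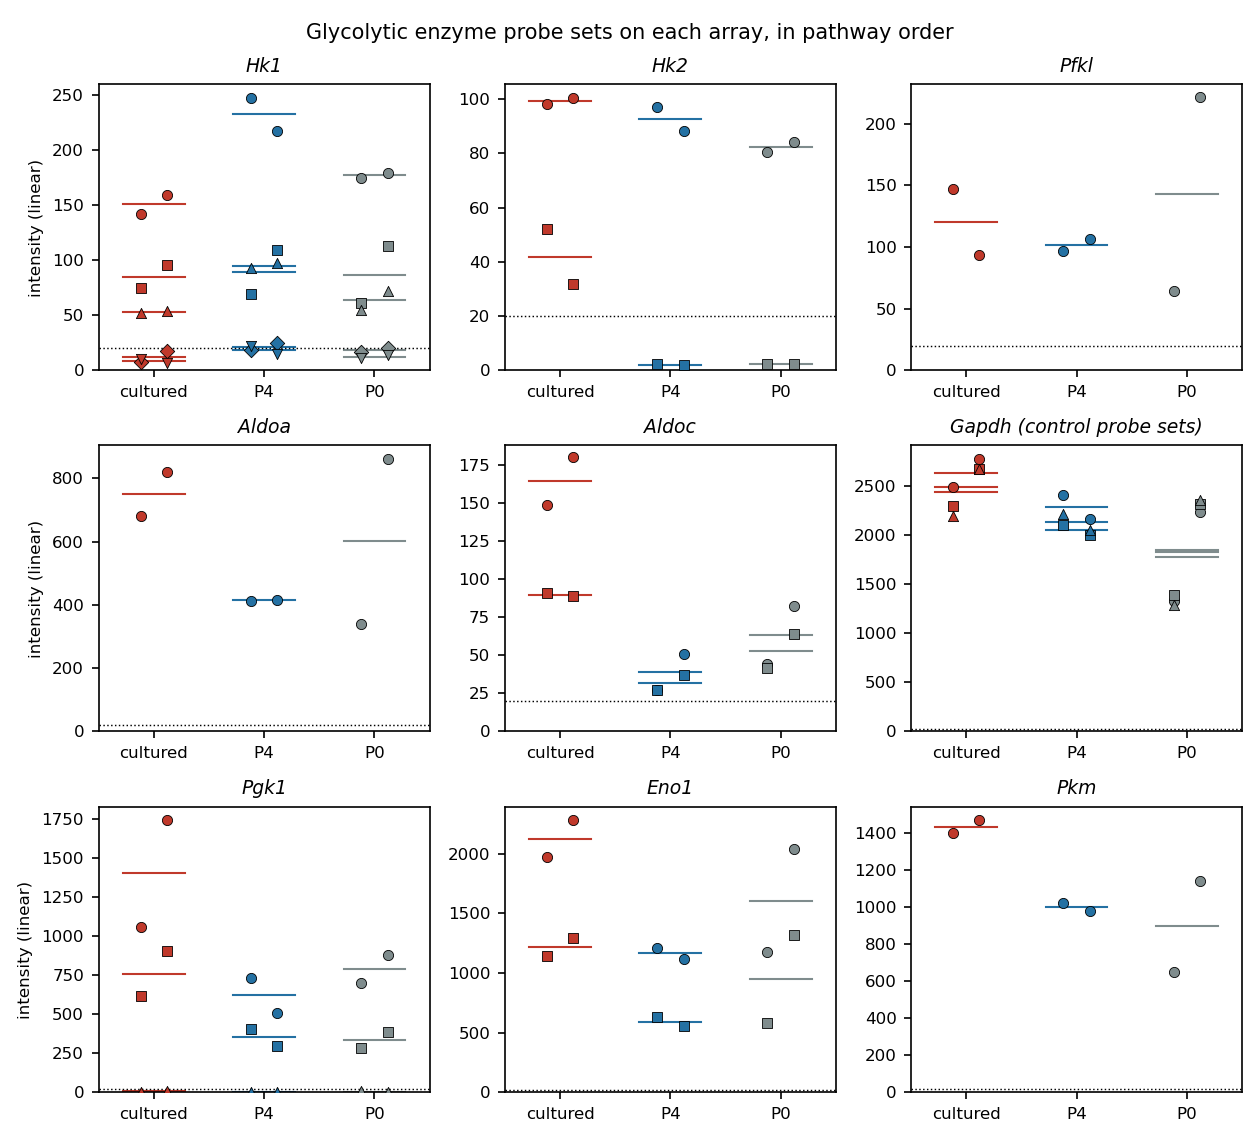
Linear intensity (y axis, from 0) of each glycolytic enzyme probe set on the 6 arrays, with cultured, P4 and P0 ovaries from left to right in each panel. Marker shapes are different probe sets of a gene, the left and right points of a group are replicates 1 and 2, short lines are means of 2 arrays, and the dotted line is 20, the highest unspiked control reading. Aldoc reads highest on both cultured arrays, and the P0 points of Pfkl, Aldoa, Eno1 and Pkm lie far apart.

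Aldoc, the aldolase isoform typical of brain, differed most between cultured and P4 ovaries among the tested members. On M63656_s_at it read 148.9 and 180.3 in cultured, 27.0 and 50.8 in P4 and 44.0 and 82.5 in P0 ovaries. Both cultured arrays were above all 4 others, while P4 and P0 overlapped. It was higher in cultured than in P4 ovaries by 1.93 on the log2 scale (SE 0.34, limma adjusted p = 0.0146). Its log2 change of 1.33 for cultured against P0 narrowly missed the threshold (SE 0.34, limma adjusted p = 0.0527), and it was -0.60 for P4 against P0 (adjusted p = 0.513). On X06984cds_s_at it read 90.7 and 89.2 in cultured, 26.9 and 37.2 in P4 and 41.7 and 64.0 in P0 ovaries. Here the 3 groups did not overlap, with P4 lowest. The rise in cultured against P4 ovaries was 1.31 (SE 0.27, limma adjusted p = 0.0314), with changes of 0.71 against P0 (adjusted p = 0.162) and -0.59 for P4 against P0 (adjusted p = 0.39).

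The calls of Aldoc depended on single arrays. For cultured against P4, M63656_s_at no longer passed with P4 replicate 1 left out (adjusted p = 0.0799), nor without cultured replicate 1 (adjusted p = 0.0987) or cultured replicate 2 (adjusted p = 0.149), and X06984cds_s_at lost it without any P4 or cultured array (adjusted p = 0.051 to 0.184) and with no filter on dim probe sets (adjusted p = 0.0756). The log2 change stayed between 1.55 and 2.31 on M63656_s_at and between 1.12 and 1.5 on X06984cds_s_at when single arrays were left out. Against P0, the change of M63656_s_at was 1.73 without P0 replicate 2, 1.33 without either P4 array and 0.93 without P0 replicate 1. It passed with the chip ID batch as a random block (adjusted p = 0.0343). Cultured arrays have batches of their own, so that block cannot separate batch from culture. The P4 minus P0 difference of M63656_s_at was alike in both shared chip ID batches, at -0.58 and -0.62.

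Promoters of members were examined for ACGTG and GCGTG, the core letters bound by hypoxia-inducible factors, which are known to activate glycolytic genes under low oxygen. Both strands were searched in the 250 bases before each RefSeq start (GRCr8), and a CACGTG, which also is an E-box, counts as 2 overlapping matches. Windows were matched for 9 of the 10 genes, and 7 of their 13 windows held a match (53.8%), as did 54.1% of 3232 windows of genes with a tested probe set and 36.7% of all 33469. The share among members was close to that of the other measured genes. The Aldoc window is shown because this gene differed most among the tested members, and both Eno1 windows because both of its probe sets placed the cultured arrays above the P4 arrays. Capitals mark the matches, which describe these letters only. They lie at chr10:63715294-63715543, chr5:166002617-166002866 and chr5:166003111-166003360, all on the plus strand.
Aldoc: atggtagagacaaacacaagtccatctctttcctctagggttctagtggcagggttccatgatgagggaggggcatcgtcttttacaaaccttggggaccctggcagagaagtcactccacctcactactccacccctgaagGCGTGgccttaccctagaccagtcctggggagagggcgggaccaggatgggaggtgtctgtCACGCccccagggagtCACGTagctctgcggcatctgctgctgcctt
Eno1, upstream start: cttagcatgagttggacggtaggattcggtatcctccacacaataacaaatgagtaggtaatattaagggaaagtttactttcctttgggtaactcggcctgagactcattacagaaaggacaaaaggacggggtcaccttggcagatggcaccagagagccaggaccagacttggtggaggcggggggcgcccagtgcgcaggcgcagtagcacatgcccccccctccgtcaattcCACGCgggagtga
Eno1, downstream start: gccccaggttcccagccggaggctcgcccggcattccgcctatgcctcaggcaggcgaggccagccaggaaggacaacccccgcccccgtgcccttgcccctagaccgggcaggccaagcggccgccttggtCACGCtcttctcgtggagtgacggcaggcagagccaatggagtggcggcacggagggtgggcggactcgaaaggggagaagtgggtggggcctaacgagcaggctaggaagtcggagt
The Aldoc window holds 3 matches, of which 1 is an ACGTG on the minus strand, and each Eno1 window holds 1.

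Aldoa, the main aldolase of muscle and most other tissues, read 679.8 and 820.8 in cultured, 411.7 and 416.5 in P4 and 339.7 and 861.7 in P0 ovaries. Cultured and P4 arrays did not overlap, and P0 spanned both. Its log2 change was 0.84 for cultured against P4 (SE 0.36, limma adjusted p = 0.325), 0.46 relative to P0 (adjusted p = 0.515) and -0.38 for P4 against P0 (adjusted p = 0.729). Without P0 replicate 1 the change of cultured against P0 turned to -0.20 (adjusted p = 0.71), and without P0 replicate 2 it was 1.12 and passed (adjusted p = 0.0467). The change against P4 passed without P0 replicate 1 (adjusted p = 0.0495), since all 3 groups share 1 estimate of the spread.

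Pgk1, phosphoglycerate kinase, makes the first ATP of the pathway. On M31788_g_at it read 617.2 and 902.9 in cultured, 405.1 and 299.5 in P4 and 284.7 and 387.3 in P0 ovaries. Both cultured arrays were above all others, and P4 and P0 overlapped. It was higher in cultured than in P0 ovaries by 1.15 on the log2 scale (SE 0.26, limma adjusted p = 0.0332), its change against P4 was 1.08 (SE 0.26, limma adjusted p = 0.0634), and P4 minus P0 was 0.07 (adjusted p = 0.95). On rc_AA892797_at it read 1060 and 1741.6 in cultured, 731.9 and 508.1 in P4 and 698 and 881.9 in P0 ovaries, with changes of 0.79 against P0 (adjusted p = 0.135), 1.15 against P4 (adjusted p = 0.0608) and -0.36 for P4 against P0 (adjusted p = 0.648). Both sets thus placed cultured ovaries highest, with cultured replicate 2 above replicate 1. The remaining set, M31788_at, read 11 or less on every array and gives no level.

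The Pgk1 call on M31788_g_at ended without P0 replicate 1 (log2 change 0.93, adjusted p = 0.143), P0 replicate 2 (adjusted p = 0.053), cultured replicate 1 (adjusted p = 0.076) or cultured replicate 2 (log2 change 0.88, adjusted p = 0.237). It also ended with quantile normalization (adjusted p = 0.0609), with no filter on dim probe sets (adjusted p = 0.0539) and without the intensity trend in the variances (adjusted p = 0.076). For cultured against P4, rc_AA892797_at passed without P4 replicate 1 (adjusted p = 0.0465).

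Eno1, alpha-enolase, makes phosphoenolpyruvate. On X02610_g_at it read 1968.4 and 2282.2 in cultured, 1212.7 and 1115.9 in P4 and 1175.6 and 2038.9 in P0 ovaries, and on X02610_at 1139.7 and 1294.5 in cultured, 631.8 and 553.6 in P4 and 585.5 and 1317.2 in P0 ovaries. On both sets the cultured arrays lay above the P4 arrays, P0 replicate 1 lay with P4 and P0 replicate 2 with the cultured arrays. The log2 changes of cultured against P4 were 0.86 (SE 0.24, limma adjusted p = 0.109) and 1.03 (SE 0.32, limma adjusted p = 0.151). Fitted to the cultured and P4 arrays alone, both sets passed (adjusted p = 0.0196 and 0.0147), as they did without P0 replicate 1 (adjusted p = 0.0196 and 0.0142) or P0 replicate 2 (adjusted p = 0.0211 and 0.0158). The changes of cultured against P0 were 0.45 and 0.46 (adjusted p = 0.328 and 0.454), and those of P4 against P0 -0.41 and -0.57 (adjusted p = 0.528 and 0.513). Without P0 replicate 1 the X02610_at change of cultured against P0 turned to -0.12, and without P0 replicate 2 it was 1.04 and passed (adjusted p = 0.0463). Within the shared chip ID batches, P4 minus P0 was 0.04 and -0.87 on X02610_g_at and 0.11 and -1.24 on X02610_at.

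Pkm, the muscle-type pyruvate kinase gene, whose splice forms M1 and M2 are not separated here, makes the last ATP of the pathway. It read 1395.6 and 1467.9 in cultured, 1020 and 980 in P4 and 649.3 and 1141.2 in P0 ovaries. Both cultured arrays were above all others, and the P4 arrays lay between those of P0. Its log2 change was 0.73 for cultured against P0 (SE 0.24, limma adjusted p = 0.123), 0.51 for cultured against P4 (SE 0.24, limma adjusted p = 0.391) and 0.21 for P4 against P0 (adjusted p = 0.796). The change of cultured against P0 was 0.32 without P0 replicate 1 (adjusted p = 0.421) and 1.13 without P0 replicate 2 (adjusted p = 0.022).

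**Figure D3:**
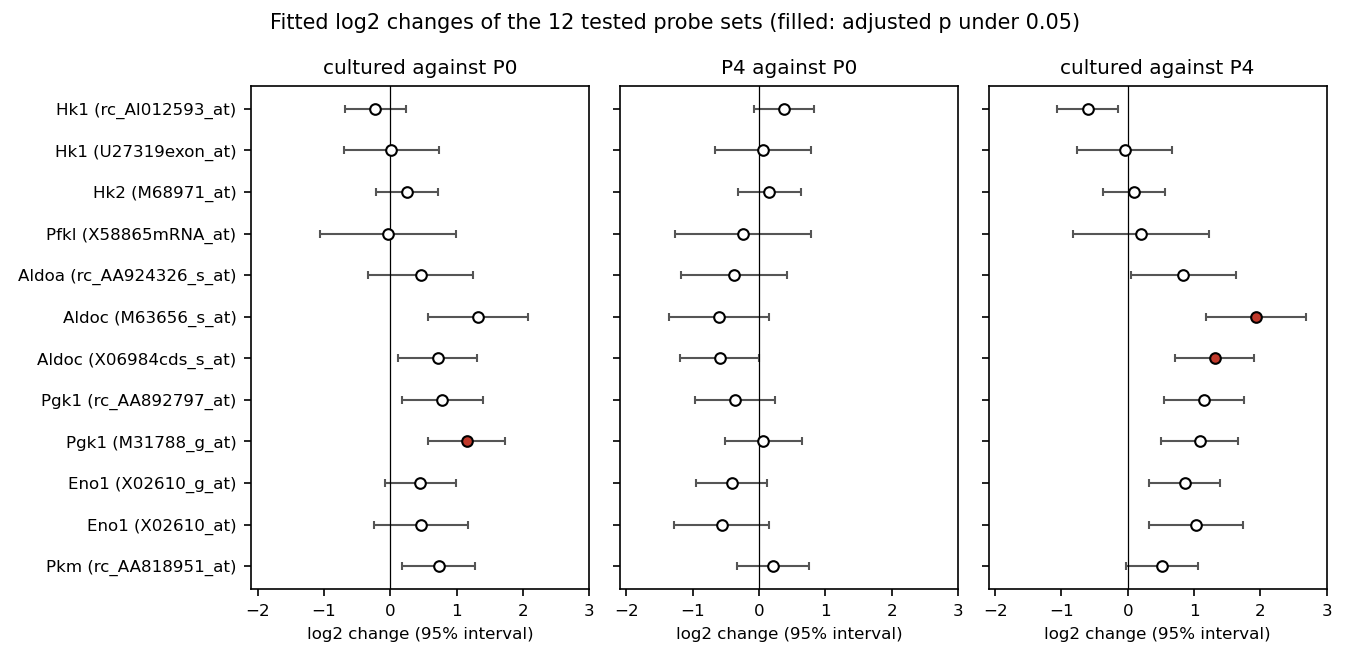
Fitted log2 change (x axis) with 95% interval for the 12 tested probe sets, in pathway order from top to bottom, in each of the 3 comparisons. Filled points passed at an adjusted p under 0.05: Pgk1 for cultured against P0, and both Aldoc probe sets for cultured against P4. From Aldoa down to Pkm all changes of cultured against P4 lie above 0.

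Along the pathway, the change of cultured against P4 ovaries ran from -0.60 to 0.20 over the 4 tested hexokinase and phosphofructokinase member sets. It ran from 0.51 to 1.93 over the 8 of aldolase, phosphoglycerate kinase, enolase and pyruvate kinase. Sets outside these 12 did not all follow that split. The dim Hk2 set D26393exon_s_at was at least 2.04-fold higher in cultured than in P4 ovaries. The phosphofructokinase isoform Pfkp read higher in cultured ovaries on both sets with no overlap, and neither set passed. Its arrays read 87.1 and 120.4 in cultured and 79.4 and 56.2 in P4 ovaries on the brighter set. On L25387_at they read 47.4 and 48.1, and 30.8 and 17.7. The isoform Pfkm read lower on D21869_s_at (72.6 and 86.2, and 103 and 109.3) and overlapped on its brighter set. Pgam1 read 1112.4 and 978.5 in cultured and 1069.8 and 1145.7 in P4 ovaries on its brightest set, though its other sets read higher. The untested Gapdh controls had means of 2633.35, 2486.2 and 2436.35 in cultured and 2285.35, 2053.3 and 2132.95 in P4 ovaries. Of the 12 probe sets, 9 were higher and 1 lower in cultured ovaries with no overlap between the groups, against 19.1% and 24.5% of all tested probe sets. Over the brightest probe set of each of the 8 genes, the median change was 0.68, where the median of all tested probe sets was -0.04. For cultured against P0 the median over the genes was 0.45 (all tested, -0.08), and 6 of 12 probe sets lay higher and 1 lower with no overlap, against 21.3% and 29% of all. That median was 0.14 without P0 replicate 1 and 0.90 without P0 replicate 2. For P4 against P0 the median was -0.30 (all tested, -0.05), with 2 of 12 higher and 1 lower with no overlap, against 18.6% and 25.7% of all. It was -0.67 without P0 replicate 1 and 0.23 without P0 replicate 2, so that its sign rests on the P0 arrays. No member had an unadjusted p under 0.05 between P4 and P0. The comparisons with P0 share the P0 arrays, and those with cultured ovaries share the cultured arrays.

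Of 5 further genes of glycolytic enzymes and isoforms tested, 4 did not pass in any comparison, and Ldhc was called against P0. Over all tested probe sets 3.48% passed as higher in cultured and 0.85% as higher in P4 than in P0 ovaries. Ldhc, the isoform best known from testis, was kept by the filter on dim probe sets only through its cultured and P4 arrays, so its calls are given as a description. It read 35.5 and 19.1 in cultured, 32.4 and 28.4 in P4 and 2.2 and 2.8 in P0 ovaries. It was at least 1.3-fold higher in cultured (adjusted p = 0.0205) and at least 1.52-fold higher in P4 (adjusted p = 0.0401) than in P0 ovaries, with the P0 arrays set to 20. The P4 call was lost whichever array was left out (highest adjusted p = 0.214) and with quantile normalization (adjusted p = 0.0555), and that of cultured ovaries without either P0 array or cultured replicate 1 (highest adjusted p = 0.117). Ldhb, the heart-type subunit, read 1014.8 and 925.4 in cultured, 1249 and 1115.9 in P4 and 851.9 and 710.5 in P0 ovaries on its brighter set. Its 3 groups did not overlap, and its log2 change was 0.60 for P4 against P0 (adjusted p = 0.162) and 0.31 in cultured ovaries relative to P0 (adjusted p = 0.355). Against P4, cultured ovaries read lower on both Ldhb sets with no overlap (log2 changes -0.28 and -0.16, adjusted p = 0.549 and 0.767). Pfkp, the platelet-type phosphofructokinase, read 87.1 and 120.4 in cultured, 79.4 and 56.2 in P4 and 68.9 and 61.5 in P0 ovaries (adjusted p = 0.371 for cultured against P4). Pgam1, phosphoglycerate mutase, had a change of -0.09 for cultured against P4 on its brightest set (adjusted p = 0.904), while its other sets read higher in cultured ovaries with no overlap (0.50 and 0.41, adjusted p = 0.307 and 0.509). Pfkm, the muscle-type phosphofructokinase, had a change of 0.28 for P4 against P0 (adjusted p = 0.691).

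Of 8 tested glucose and lactate transporters, 1 rose in cultured against P4 ovaries and none passed in the other comparisons on the brightest set. Over all tested probe sets 2.16% passed as higher for cultured against P4. Slc16a3, the lactate exporter of glycolytic cells, read 83.3 and 108.8 in cultured, 24.9 and 38.8 in P4 and 45.0 and 42.7 in P0 ovaries. Both cultured arrays were above all others. It rose by 1.40 against P4 (SE 0.27, limma adjusted p = 0.0222) and had a change of 1.00 against P0 (adjusted p = 0.0653). The first call ended without P4 replicate 1, cultured replicate 1 or cultured replicate 2 (highest adjusted p = 0.164). Slc2a1, the widespread glucose carrier, read 359.5 and 763.9 in cultured, 243.4 and 221.3 in P4 and 239.4 and 261.5 in P0 ovaries. Its cultured arrays were apart from the others and from each other, with changes of 1.15 against P4 (adjusted p = 0.102) and 1.05 against P0 (adjusted p = 0.0933), both of which passed without cultured replicate 1 (adjusted p = 0.027 and 0.03). The fructose carrier Slc2a5 fell by 1.45 in P4 against P0 ovaries on D28562_s_at (adjusted p = 0.0185), which held without P4 replicate 2 (adjusted p = 0.0418) but with none of the other arrays left out (highest adjusted p = 0.12), and its brighter set changed by -0.75 (adjusted p = 0.269). The sodium-coupled carrier Slc5a1 changed by -0.86 in P4 against P0 ovaries (adjusted p = 0.154, or 0.031 with the shared chip ID batch as a block).

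In the pyruvate dehydrogenase and citric acid cycle list, 2 of 14 tested genes rose in cultured against P0 ovaries, none fell, and none passed in the other comparisons. Both genes that rose code for cytosolic enzymes. Over all tested probe sets 3.48% passed as higher and 1.95% as lower for cultured against P0. Idh1, the cytosolic isocitrate dehydrogenase, read 465.4 and 461.6 in cultured, 291.6 and 221.4 in P4 and 200.3 and 126.7 in P0 ovaries (log2 change 1.49 for cultured against P0, SE 0.26, limma adjusted p = 0.0113). The 3 groups did not overlap. Aco1, the cytosolic aconitase, rose by 0.84 (adjusted p = 0.0451), a call lost whichever array was left out (highest adjusted p = 0.196) or with quantile normalization (adjusted p = 0.0601), while the call of Idh1 ended without P0 replicate 2 or either cultured array (highest adjusted p = 0.099). The rise of Aco1 was not particular to culture: it read 246.8 and 214.9 in cultured, 204.1 and 205.9 in P4 and 129.7 and 121.8 in P0 ovaries. The 2 pentose phosphate genes tested, Tkt and Taldo1, did not pass, with changes of 0.36 and 0.39 for cultured against P0 (adjusted p = 0.4 and 0.436). None of 8 glycogen genes passed on the brightest set. A dimmer set of Gyg1, the primer of glycogen chains, rose by 0.88 in cultured against P0 ovaries (adjusted p = 0.0302), and not without either P0 or either cultured array (highest adjusted p = 0.152). That Gyg1 set was about as high at P4: it read 375.5 and 374.5 in cultured, 337.9 and 386 in P4 and 206.2 and 193.4 in P0 ovaries. Of the gluconeogenesis genes Fbp2 and Pc, neither passed on its brightest set. A dimmer Fbp2 set read 21.9 and 10.9 in cultured, 10.1 and 12.5 in P4 and 49.4 and 52 in P0 ovaries. This Fbp2 set was kept by the filter on dim probe sets only through its P0 arrays, so its call against P0 (adjusted p = 0.0452) is given as a description. With 1 of the 2 cultured arrays under 20, its fitted size against P0 is uncertain. The call was lost whichever array was left out or with quantile normalization (adjusted p = 0.0798). None of 5 regulators of glycolytic flux and none of 4 shuttle enzymes passed, with smallest adjusted p values of 0.314 (Pfkfb2) and 0.432 (Got2), both for cultured against P0.

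Of 13 tested genes of hypoxia and insulin responses, 1 rose in cultured against P4 ovaries, where 2.16% of all tested probe sets did, and none passed against P0. Hmox1, the stress-induced heme oxygenase, read 291 and 189.3 in cultured, 64.8 and 104.6 in P4 and 110.6 and 152.1 in P0 ovaries (log2 change 1.43 against P4, limma adjusted p = 0.0365). That call ended without P4 replicate 1 or either cultured array (highest adjusted p = 0.251) and with quantile normalization (adjusted p = 0.0618). Vegfa, an angiogenic factor induced by low oxygen, read 89.3 and 128.5 in cultured, 48.9 and 41.6 in P4 and 50.5 and 70.1 in P0 ovaries on its brightest set. Its cultured arrays were above all others, with a change of 1.12 against P4 (adjusted p = 0.0608). The sets M32167_at and M32167_g_at did not share this order, and the dim L20913_s_at did, at 20.3 and 23.4 in cultured, 10.2 and 7.2 in P4 and 4.0 and 7.2 in P0 ovaries. M32167_at read 56.1 and 80.3 in cultured, 61.8 and 53.0 in P4 and 88.7 and 82.8 in P0 ovaries. Adm, adrenomedullin, was at least 2.2-fold higher in cultured than in P4 ovaries, with the P4 side set to 20, and did not pass (adjusted p = 0.124). Hif1a, the oxygen-regulated factor itself, changed by 0.43 in P4 against P0 ovaries (adjusted p = 0.452).

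**Figure D4:**
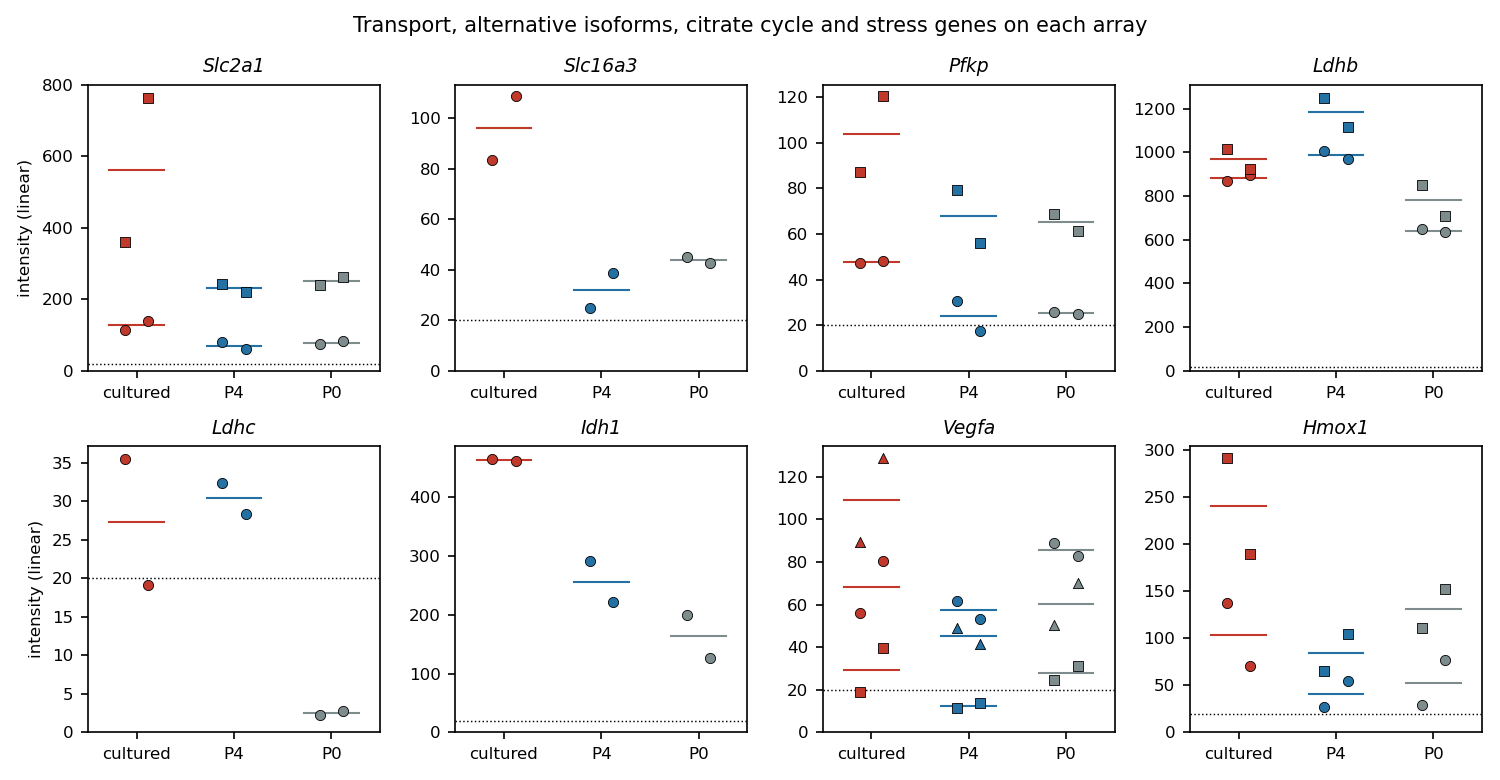
Linear intensity (y axis, from 0) of 8 genes of transport, alternative isoforms, the cytosolic isocitrate dehydrogenase (Idh1) and stress on the 6 arrays, with cultured, P4 and P0 ovaries from left to right. Marker shapes are different tested probe sets, paired points are replicates 1 and 2, short lines are means of 2 arrays, and the dotted line is 20. Slc16a3, Slc2a1 and Idh1 read highest on both cultured arrays, and Ldhc reads lowest on both P0 arrays.

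Summed intensities of cell type markers differed between the groups. The summed intensity of 6 macrophage markers ran from 1511.8 to 3224.5 in cultured, 203.8 to 259.8 in P4 and 314.7 to 444.6 in P0 ovaries. The 5 adipocyte markers summed to between 1471.8 and 1978.5 in cultured, 871.4 and 882.8 in P4 and 739.2 and 856.7 in P0 ovaries, with Plin1 under 20 on all arrays. The fatty acid carrier Fabp4 read 512.3 and 783.3 in cultured, 111.4 and 30.1 in P4 and 9.3 and 1.5 in P0 ovaries. Lep, leptin, went the other way on its brightest set, with 531.5 and 506.4 in cultured, 632.1 and 707.9 in P4 and 760.2 and 653.3 in P0 ovaries. The 5 erythroid markers summed to between 184.4 and 204.2 in cultured, 2253.5 and 2991.9 in P4 and 3985.4 and 4104.9 in P0 ovaries. The part of these markers in the enzyme differences was not tested.

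The 6 nerve and glia markers, of interest beside the brain-type Aldoc, summed to between 220.2 and 313.5 in cultured, 148 and 159.8 in P4 and 172.5 and 187.3 in P0 ovaries. Of the 6, S100b alone read higher on both cultured arrays than on all others, at 123.2 and 193.6 in cultured, 13.2 and 20.6 in P4 and 13.0 and 7.0 in P0 ovaries. The myelin gene Mbp read 8.8 and 9.5 in cultured, 19.8 and 29.7 in P4 and 16.1 and 17.5 in P0 ovaries. Only P4 replicate 2 was above 20, so the difference between cultured and P0 ovaries gives no level. Without S100b the other 5 summed to 97.0 and 119.9 in cultured, 134.8 and 139.2 in P4 and 174.3 and 165.5 in P0 ovaries. The skeletal muscle sum of 10 markers, with 5 of them under 20 on all arrays, ran from 292.1 to 349.2 in cultured, 393.8 to 400.4 in P4 and 461.1 to 479.8 in P0 ovaries. Ovarian identity was clear on all arrays: the 7 oocyte markers summed to between 3055.5 and 3192 in cultured, 3888.5 and 4192.6 in P4 and 1459.6 and 1480.9 in P0 ovaries. Against P0, 3 of the 7 passed as higher and 2 as lower, in cultured and in P4 ovaries alike. Over all tested probe sets these shares were 3.48% and 1.95% for cultured, and 0.85% and 0.229% for P4. Sycp3 read 34.6 and 28.1 in cultured, 41.7 and 43 in P4 and 300 and 184.6 in P0 ovaries. Zp2 read 1373.9 and 1309.9 in cultured, 1782.3 and 1466.4 in P4 and 282.4 and 338.3 in P0 ovaries. The 7 granulosa markers summed to between 1453.4 and 1591.2 in cultured, 2455.9 and 3422.9 in P4 and 1679.7 and 1722.3 in P0 ovaries. They did not move together. For cultured against P4, 2 of the 7 passed as higher and 3 as lower, against 2.16% and 0.621% of all tested probe sets. Among the 7, Cyp19a1 read above 20 only on its P4 arrays (132.6 and 85.7), and the filter on dim probe sets averages over all arrays. These counts are therefore given as a description. Krt18 read 337 and 388.8 in cultured and 36.9 and 79.4 in P4 ovaries on its brightest set. Inha read 360.7 and 462.3 in cultured and 1970.3 and 1349.1 in P4 ovaries on its brightest set.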

How the data were processed

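Values were the linear probe set intensities deposited by the authors, already scaled: the mean without the lowest and highest 2% of values was 125.2 on each of the 6 arrays. Per the labels, biotin-labelled RNA was hybridized by standard Affymetrix procedures, and the algorithm and software that made the intensities are not given there. No further normalization was applied. Tests left out 59 control probe sets and 2622 dim ones, whose mean over arrays on the log2 scale fell under the 30th percentile, and kept 6118. Before taking log2, 7.7 was added to each intensity, which is the 20th percentile of the deposited values. One model with 3 group means was fitted with limma 3.58.1 in R 4.3.3 (trended variances, 3 residual and 6.45 prior degrees of freedom), two-sided, with Benjamini-Hochberg adjustment over all 6118, and the procedure was tested on simulated data. The number of arrays limits the precision: log2 changes had a median standard error of 0.259, and an exact permutation test of 2 against 2 arrays cannot go below p = 0.333. p-values measure the spread between 2 pools.

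Symbols came from the array's annotation, matched by gene number to RefSeq (GRCr8): 7018 probe sets had 1 symbol, of which 6994 matched, 308 had several and 1473 had none. Promoter sequences are RefSeq's. The 10 enzymes, the pathway and marker lists and the alternatives were chosen with earlier results of these data known. All member probe sets are named. From the other lists, called members and otherwise up to 3 of smallest p per comparison were eligible, and counts use the brightest set per gene. The values of further Vegfa, Pgam1 and Pfkp sets, Pfkm, Aco1, Gyg1, Mbp, Fabp4, Lep, S100b, Krt18, Inha and Cyp19a1 were added after they were seen. So were those of Sycp1, Sycp3, Zp2, Zp3, Star and Lhcgr.

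P0 and P4 arrays of the same replicate number share a chip ID batch, per the labels, and cultured arrays have batches of their own. Deviations of same-numbered P0 and P4 arrays correlated at 0.33 across probe sets.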

Additional observations from a re-analysis of the deposited data

How the results depend on the processing

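For cultured against P0, the number of member probe sets that passed, 1, became 0 with quantile normalization or without the intensity trend, and 2 with a pseudocount of 32, a stricter filter on dim probe sets, the chip ID batch as a random block, or only the 2 groups in the fit. It ranged from 0 to 4 with single arrays left out, where the count over all probe sets, 332, ranged from 90 to 353 and the member median from 0.14 to 0.90. For cultured against P4, 2 member probe sets became 4 with only the 2 groups in the fit and ranged from 0 to 5 with single arrays left out, where all calls ranged from 86 to 193 (170 with all arrays) and the median from 0.60 to 0.76. For P4 against P0, members stayed at 0 in every alternative. All 66 calls became 335 with the random block, 314 with the replicate block, 23 with no filter, 29 without the trend and 23 with only the 2 groups, and 15 to 55 with single arrays left out, where the median ran from -0.67 to 0.23. The replicate block changed no member call for P4 against P0. The cultured arrays share only a number with the others (deviations correlated at -0.13 with P0 and -0.05 with P4), and there the replicate block gave 4 member calls in each comparison and 566 calls in all against P0 and 165 against P4. With no filter the counts stayed at 1 and 2, but the dim Hk2 probe set passed in both comparisons with cultured ovaries, while Pgk1 M31788_g_at (against P0) and Aldoc X06984cds_s_at (against P4) did not. A pseudocount of 1 changed no member call. Signal near 20 limits the dim Hk1, Hk2, Pgk1 and Ldhc sets, and the cause of these shifts was not tested.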
